A study of Mus musculus with 16 samples.

Results

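H3K4me3 peaks were compared between testes that carry a wild-type PRDM9 transgene (B6-TgWT) and testes that carry a catalytic mutant of it (B6-TgYF). The members are all deposited peaks of both lines on chromosomes 1 to 19, 46631 for B6-TgWT and 41558 for B6-TgYF, 88189 of the 138202 autosomal peaks in the 3 lists of the series. A peak was held by both lists when a peak of the other list overlapped it by at least 1 bp, and by 1 list only when none did. The B6 list played no part in this sorting.

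Trimethylation of histone H3 at lysine 4 marks active promoters in every tissue. In meiotic cells PRDM9 adds a further set of such sites: its zinc fingers bind a DNA sequence, its PR/SET domain trimethylates the nucleosomes beside it, and the double-strand breaks that start recombination form there. A change of the zinc fingers moves these sites, whereas promoters do not depend on PRDM9.

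Of the 16 samples of the series, 6 were H3K4me3 ChIP libraries from whole testis at 13 days post-partum, 2 for each line, and each line had 1 input library. The B6-TgWT mice were C57BL/6J with line 43Bdm of a modified RP23-159N6 transgene, and the B6-TgYF mice were C57BL/6JRj with line 23Bdm of a modified RP23-159N6 transgene. The labels name no Prdm9 deletion in either line, so both have their own Prdm9 genes, as do the B6 mice (C57BL/6JOlaHsd) used here as a yardstick. Going by outside knowledge of the study, the transgene carries PRDM9 with the zinc fingers of another allele, and YF stands for a tyrosine to phenylalanine change in the catalytic domain. Each genotype was 1 transgenic line, so transgene, insertion, copy number and substrain cannot be told apart in any difference between the lists. Whole testis mixes meiotic, premeiotic and somatic cells, so fewer cells with a mark and less mark per cell cannot be told apart either. The lists carry no gene names, so the tissue could not be checked against its marker genes.

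The authors deposited 1 peak list for the 2 libraries of a line. No difference below could therefore be set against a spread between replicates, and no test across samples was possible. The labels do not say whether the 2 libraries came from different animals, and the B6 list's name gives day 12 where its labels give 13. Intervals are 95% Wilson intervals for shares and order-statistic intervals for medians. They reflect the number of peaks alone, which do not stand for replicates. Read depth is unknown, since the lists hold no read counts. Absence from a list means that no overlapping peak was listed and is no measure of unmarked chromatin. The fold enrichment over background is the authors' value for each peak, and strength below is its percentile within its own list, from 0 (weakest) to 100.

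Most peaks were held by both lists, and the peaks held by 1 list only were of different kinds in the 2 lines. In the B6-TgWT list 10304 of 46631 peaks had no B6-TgYF peak, a background share of 22.1% (interval 21.7 to 22.5). In the B6-TgYF list 5667 of 41558 peaks had no B6-TgWT peak, 13.6% (interval 13.3 to 14.0). Peaks held by both numbered 36327 (B6-TgWT) and 35891 (B6-TgYF). The ratio of the 2 counts of 1-list peaks was 1.82. With the B6-TgWT list shortened to 41558 peaks by dropping its weakest, which also takes partners from weak B6-TgYF peaks, the shares were 19.97% and 20.7% and the ratio 0.963, so the direction turned.

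Strength separated the classes more than their number did. Among B6-TgWT peaks above percentile 50, 2446 of 23324 had no B6-TgYF peak, which was 10.5% (interval 10.1 to 10.9). Among B6-TgYF peaks above percentile 50, 8 of 20782 had no B6-TgWT peak, which was 0.0385% (interval 0.0195 to 0.0759). The first share lies below the list's background of 22.1%, and the second far below 13.6%. With lists of equal length the same shares were 8.41% and 0.5004%, still 16.8 times as many strong B6-TgWT-only peaks as strong B6-TgYF-only peaks.

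By decile of strength, B6-TgWT-only peaks made up 39.3% of the weakest decile of their list, 40.3% of the next, then 32.0%, 28.5%, 28.5% and 26.2%. The share was still 21.3% in decile 7, and it was 4.70% in decile 8 and 0.236% in decile 9. In decile 10 none of 4664 peaks was without a B6-TgYF peak, which allows up to 0.0823%. B6-TgYF-only peaks made up 54.1% and 46.7% of their list's first 2 deciles. Their share was 24.4% in decile 3, 9.33% in decile 4, 1.90% in decile 5 and 0.168% in decile 6. A single B6-TgYF-only peak lay in decile 7 and none in deciles 8 to 10. In both lists the strongest sites were thus all shared, while sites of middle strength were often without a partner in B6-TgWT and seldom in B6-TgYF.

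**Figure D1:**
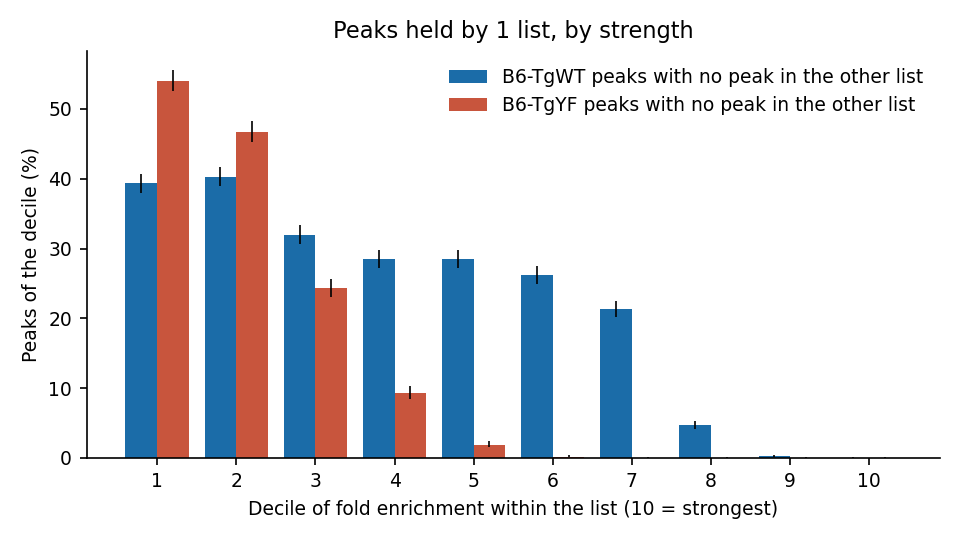
Share of the peaks of each list (%) that had no overlapping peak in the other list, by decile of fold enrichment within the list (10 is strongest). Bars show the share and lines its 95% Wilson interval; B6-TgWT stays at 21.3% in decile 7, where B6-TgYF holds 1 such peak.

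The median percentile of the 1-list peaks was 29.4 for B6-TgWT and 12.7 for B6-TgYF. Their fold enrichment had a median of 4.90 and a maximum of 19.45 in B6-TgWT, against a median of 8.04 for the peaks of that list held by both. In B6-TgYF the median was 3.89 and the maximum 12.87, against 9.05 for its peaks held by both. The 2 lists' folds are not on a common scale, so they are set side by side without a comparison between lines.

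The 5 strongest B6-TgWT-only peaks ranked between percentiles 81.2 and 84.0 of their list. They were at chr7:116990118-116991284 (mm9, as are all coordinates here, counted from 1), with a fold of 19.45, chr2:110012938-110014650 (19.29), chr4:140110938-140113990 (17.85), chr17:46066458-46069344 (17.73) and chr4:151123980-151126668 (17.7). The first was 1167 bp wide and the widest of the 5 was 3053 bp. The nearest B6-TgYF peaks lay between 5.21 and 21.2 kb away, so none of the 5 rested on a narrowly missed overlap.

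The strongest B6-TgYF-only peak was at chr10:122238848-122240325, 1478 bp wide with a fold of 12.87, and ranked at percentile 66.8. The next were at chr5:137311946-137312883 (fold 8.27), chr2:57469035-57469741 (8.02), chr13:58898429-58899071 (7.85) and chr6:34202088-34203178 (7.77), all between percentiles 51.4 and 53.7. The chromosome 2 peak had a B6-TgWT peak 1.69 kb away, and for the chromosome 10 peak the nearest was 82.7 kb away.

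Few peaks lay near the edge of the matching rule. Of 36616 overlapping pairs, 30 shared under 100 bp, and the smallest overlap was 1 bp. Of the B6-TgWT-only peaks, 54 had a B6-TgYF peak within 100 bp and 363 (3.52%) within 500 bp, and the median gap was 17991 bp. Of the B6-TgYF-only peaks, 151 had a B6-TgWT peak within 100 bp and 652 (11.5%) within 500 bp, and the median gap was 10505 bp. The B6-TgYF-only class therefore held more peaks beside a peak of the other line.

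The B6 list, which the sorting did not use, divided the 2 classes in opposite ways. A B6 peak overlapped 1374 of the 10304 B6-TgWT-only peaks (13.3%, interval 12.7 to 14.0) and left 8930 without one. A B6 peak overlapped 5218 of the 5667 B6-TgYF-only peaks (92.1%, interval 91.3 to 92.8) and left 449 without one. Of the peaks held by both lists, 99.8% overlapped a B6 peak in each list. The class of B6-TgWT-only peaks thus lay mostly outside the B6 list, and the class of B6-TgYF-only peaks mostly inside it.

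Both kinds of B6-TgWT-only peak differed in strength and width. The 8930 without a B6 peak had a median percentile of 33.5 and a median width of 1191 bp, and 2390 of them lay above percentile 50. The 1374 with a B6 peak had a median percentile of 13.4 and a median width of 679 bp, and 56 lay above percentile 50. These last values were near those of the B6-TgYF-only peaks with a B6 peak, at percentile 13.3 and 651 bp. The 449 B6-TgYF-only peaks outside B6 were weaker and narrower still, at percentile 7.78 and 522 bp, and 0 of them lay above percentile 50.

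Widths set the 2 classes apart once peaks of like strength were compared. Over all strengths, B6-TgWT-only peaks had a median width of 1123.5 bp (quartiles 767 and 1520) against 1245 bp for peaks of that list held by both. B6-TgYF-only peaks had a median of 640 bp (quartiles 470 and 833) against 1296 bp. Width and fold enrichment rise together in both lists, so each list was cut into 20 bins of percentile and the classes were set side by side wherever a bin held at least 20 1-list peaks. B6-TgWT-only peaks were then wider than shared peaks in 15 of 16 bins, by a ratio of medians from 0.986 to 1.44. B6-TgYF-only peaks were narrower than shared peaks in 9 of 9 bins, by 0.765 to 0.824. With peaks matched by summits within 500 bp in place of overlap, B6-TgWT-only peaks were wider in 15 of the same 16 bins and B6-TgYF-only peaks narrower in 8 of the same 9. That rule counts overlapping peaks with summits over 500 bp apart as 1-list peaks. It filled 11 further B6-TgYF bins, in which 504 of 529 1-list peaks overlapped a B6-TgWT peak and the median was wider than that of shared peaks in 11 of 11.

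Between percentiles 55 and 60 of the B6-TgWT list, the 584 B6-TgWT-only peaks had a median width of 1635 bp and the 1752 shared peaks 1135 bp. Between percentiles 65 and 70 the medians were 1925 and 1342 bp. The exception was the bin from percentile 5 to 10, with 709 against 719 bp. In the weakest bin of the B6-TgYF list the 1009 B6-TgYF-only peaks had a median of 620 bp and the shared peaks 799.5 bp. The gap in width thus opened toward the middle and upper strengths of B6-TgWT, and B6-TgYF-only peaks were the narrower at all strengths compared.

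**Figure D2:**
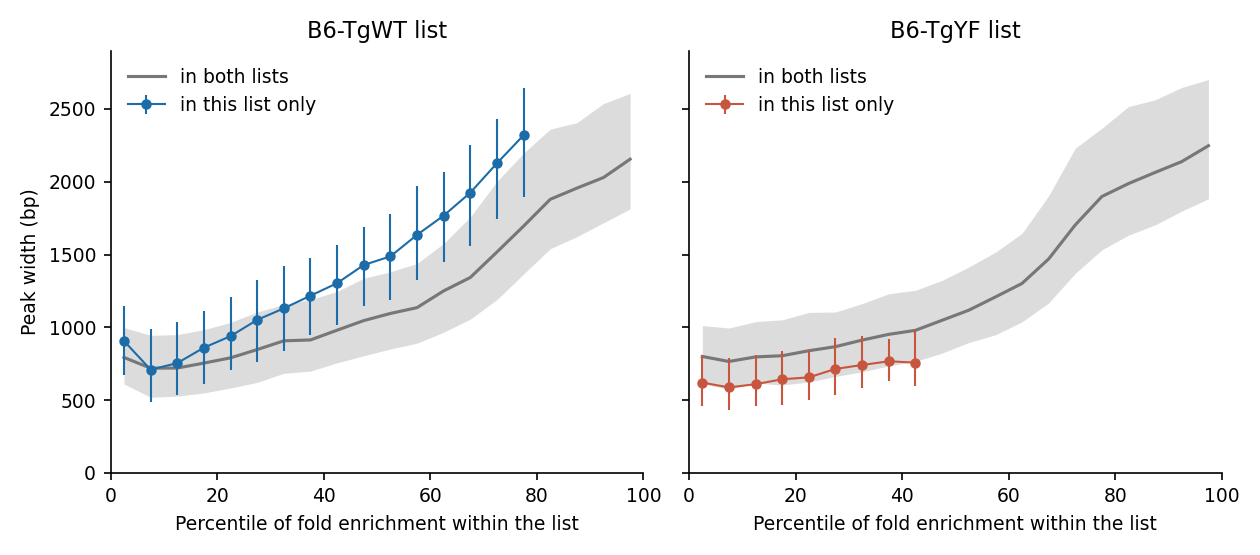
Median peak width (bp) against percentile of fold enrichment within the list, for peaks held by both lists (grey line, quartiles shaded) and by 1 list only (points, quartiles as lines, bins with at least 20 such peaks). B6-TgWT-only peaks lie above the grey line in 15 of 16 bins and B6-TgYF-only peaks below it in 9 of 9.

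Splitting by the B6 list set B6-TgWT-only peaks apart by width in the weaker bins. Those without a B6 peak were wider than shared peaks of like strength in 16 of 16 bins, by 1.12 to 1.44. Those with a B6 peak were narrower in 7 of 10 bins, the 7 weakest, with ratios over the 10 bins from 0.775 to 1.33. In the 3 bins from percentile 35 to 50, with 41, 20 and 24 such peaks, they too were wider than shared peaks, by 1.17 to 1.33. Above percentile 50 too few of them lay in any bin to compare. B6-TgYF-only peaks were narrower in every bin compared, both with a B6 peak (9 of 9) and without (5 of 5, by 0.629 to 0.687). A short peak has less length with which to overlap another, and the part of this in the widths was not tested.

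Among peaks of up to 500 bp the B6-TgYF list had the higher share of 1-list peaks, and above 1000 bp the B6-TgWT list. B6-TgWT-only peaks made up 31.1% of the peaks of up to 500 bp in their list, 23.4% from 500 to 1000 bp, 25.8% from 1000 to 1500 bp, 21.4% from 1500 to 2000 bp and 11.002% (874 of 7944) above 2000 bp. B6-TgYF-only peaks made up 51.7%, 24.9%, 5.94%, 0.667% and, above 2000 bp, 0.131% (10 of 7617). From 500 to 1000 bp, the class with the most peaks in both lists, the 2 shares were thus near each other. Above 2000 bp, 3.66% of the B6-TgWT-only peaks overlapped a B6 peak, against 40.8% of those up to 500 bp.

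The widest B6-TgWT-only peaks were neighbours on chromosome 18, at chr18:9488617-9494919 (6303 bp, fold 11.06) and chr18:9502831-9506960 (4130 bp, fold 10.95). The next was at chr8:117520473-117524461 (3989 bp, fold 10.29). All 3 ranked between percentiles 66.9 and 69.0. The widest B6-TgYF-only peak, at chr17:39980080-39983684, was 3605 bp wide but had a fold of 1.45, near the bottom of its list at percentile 0.0132. The others were at chr15:76009185-76012406 (3222 bp, fold 4.38) and chr5:115992458-115995187 (2730 bp, fold 4.08). Over all 874 B6-TgWT-only peaks above 2000 bp the median percentile was 62.0 (quartiles 53.6 and 67.8), and over the 10 such B6-TgYF-only peaks it was 18.5, with a maximum of 39.2.

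The summit lay within the central 20% of the peak less often in 1-list peaks, in 38.5% against 47.9% of shared B6-TgWT peaks and in 40.7% against 49.2% of shared B6-TgYF peaks. At like strength this held in 16 of 16 B6-TgWT bins and 7 of 9 B6-TgYF bins. With strength taken as −log10 q the counts were 14 of 16 and 3 of 9, so for B6-TgYF-only peaks the difference rested on the measure of strength.

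In 1-to-1 pairs of peaks, the summits mostly lay close together. A pair was counted as 1-to-1 when each peak overlapped no further peak of the other list, which gave 34673 pairs. This left out 1654 shared B6-TgWT peaks and 1218 shared B6-TgYF peaks. The median distance between summits was 36 bp (interval 36 to 37, quartiles 13 and 86). Summits lay within 50 bp in 59.4% of pairs, within 100 bp in 79.2% and within 500 bp in 97.9%. The signed shift had a median of 0 bp, and 655 pairs had the summit on the same base. B6 and B6-TgYF peaks, paired the same way, had a median of 32 bp with 81.9% within 100 bp (38809 pairs), and B6-TgWT and B6 peaks 34 bp with 80.4% (35011 pairs). These distances share the lists being compared, and no spread between libraries is known for any of them.

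Summits were closer at stronger pairs. From the weakest to the strongest 20% of pairs by B6-TgWT fold, the median distance was 54, 46, 40, 29 and 22 bp, and the share within 100 bp ran from 71.3% to 87.4%. Summits over 500 bp apart were found in 737 pairs, and over 1000 bp in 146. The largest distances were 3687 bp at chr4:54956732-54962962, 2769 bp at chr9:20446010-20450122 and 2719 bp at chr2:33494506-33500491 (B6-TgWT coordinates). All 3 pairs were wide, with the B6-TgWT peaks at 6231, 4113 and 5986 bp.

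Both edges lay within 100 bp of the partner's in 50.2% of pairs. The median pair had 90.0% of its joint length in common, and the B6-TgWT peak was 0.970 times as wide as its partner. The B6-TgYF peak was the wider in 21853 pairs (63.0%) and the B6-TgWT peak in 12694 (36.6%). Despite that, an edge of the B6-TgWT peak reached over 500 bp beyond its partner in 605 pairs, about as often as the reverse in 643. Between B6 and B6-TgYF the same counts were 981 and 69, and between B6-TgWT and B6 they were 516 and 1595.

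Against B6-TgYF, the excess on the B6-TgWT side was largest in the middle of the list. In the 20% of pairs around the median B6-TgWT fold, the B6-TgWT peak reached over 500 bp farther in 184 pairs and the B6-TgYF peak in 98. In the next stronger 20% the counts were 162 and 151, and in the next weaker 20% 103 and 97. In the strongest 20% they were 83 and 177, and in the weakest 20% 73 and 120. Against B6, the B6-TgWT peak did not lead in the middle 20% of pairs, with 177 against 223. In 104 pairs the B6-TgWT summit lay outside the B6-TgYF peak, with median widths of 2209 and 931 bp. The B6-TgYF summit lay outside the B6-TgWT peak in 39 pairs.

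**Figure D3:**
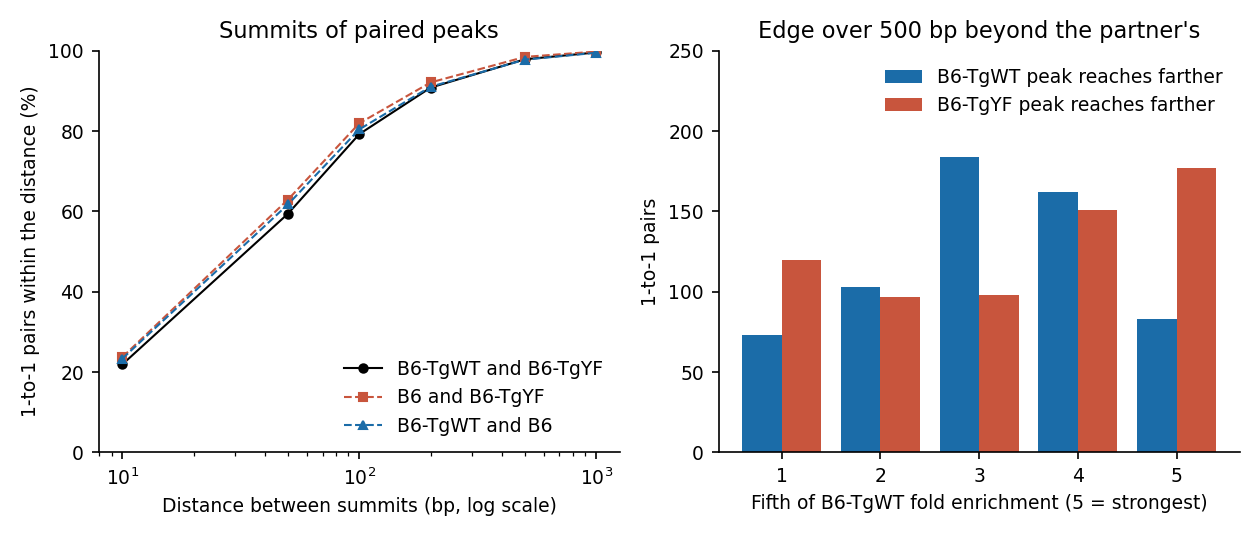
Left, share of 1-to-1 pairs (%) whose summits lie within a distance (bp, log axis) for the 3 pairings of lists; all 3 curves pass 79% at 100 bp. Right, number of B6-TgWT and B6-TgYF pairs in which an edge reaches over 500 bp beyond the partner's, in 5 equal sets by B6-TgWT fold enrichment. The B6-TgWT side leads in sets 2 to 4, by most in set 3, with 184 against 98.

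Single pairs showed what such an extension looked like. At chr12:103899874-103906594 the B6-TgWT peak was 6721 bp wide and the B6-TgYF peak 1366 bp, and the B6-TgWT summit lay 2050 bp away. At chr9:108893183-108898131 the widths were 4949 and 1623 bp with summits 21 bp apart, and at chr10:79178840-79184135 they were 5296 and 2201 bp with summits 15 bp apart. In the last 2 pairs the summit was held in common and the B6-TgWT peak ran on over 3 kb to 1 side. In the other direction the largest differences were smaller, with 837 against 3072 bp at chr9:41389326-41390162, 2248 against 4414 bp at chr16:77499628-77501875 and 1665 against 3588 bp at chr8:97508276-97509940.

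Some peaks of 1 list were several in the other. A B6-TgWT peak overlapped 2 or more B6-TgYF peaks in 283 cases, with a median width of 1881 bp. A B6-TgYF peak overlapped 2 or more B6-TgWT peaks in 698 cases, with a median width of 2284 bp. The B6-TgWT peak at chr1:64165570-64169633 (4064 bp, fold 26.54) spanned 3 B6-TgYF peaks with folds from 4.80 to 31.17. The B6-TgYF peak at chr7:56887448-56892991 (5544 bp, fold 13.56) spanned 4 B6-TgWT peaks with folds from 6.66 to 9.48. Shared stretches were thus listed in pieces more often in B6-TgWT than in B6-TgYF.

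The order of the shared sites by strength was largely the same in both lines. Over the 34673 pairs Spearman's rho of the fold enrichments was 0.905, a description across sites of 2 lists. Ranked among these pairs, the difference in percentile, B6-TgWT minus B6-TgYF, had an SD of 12.6. The B6-TgWT peak ranked over 20 points higher in 1949 pairs and the B6-TgYF peak in 2048, and over 40 points higher in 133 and 99.

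Width went with rank more on the B6-TgWT side than on the B6-TgYF side. The B6-TgWT peak was the wider in 51.2% of the pairs over 20 points higher in B6-TgWT, and in 59.9% of those over 30 points higher. In the 133 pairs over 40 points higher in B6-TgWT, the B6-TgWT peak was the wider in 105 (78.9%, against 36.6% of all pairs), with median widths of 1339 and 876 bp. In the 99 pairs over 40 points higher in B6-TgYF, the B6-TgYF peak was the wider in 71 (71.7%, against 63.0% of all pairs), with median widths of 1098 and 1003 bp. Over 20 and 30 points that share was 67.5% at both. The pairs were picked by fold, with which width rises in both lists, so a wider peak on the higher-ranked side is partly built in. Pairs over 40 points are also among those over 20 and 30 points.

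The largest gaps in rank were at chr1:41300972-41303089, where the B6-TgWT fold was 16.77 and the B6-TgYF fold 2.90, at chr8:87239451-87241695 (12.65 and 3.43) and at chr5:66357760-66359149 (14.18 and 3.86). The B6-TgWT peak was the wider in all 3, at 2118 against 1086 bp in the first, and the summits lay 10 to 19 bp apart. The largest gaps the other way were at chr16:94575054-94575778 (B6-TgWT 3.37, B6-TgYF 10.47), chr9:121402664-121403972 (3.71 and 11.34) and chr8:85871884-85872468 (3.48 and 10.09). Their widths nearly matched, at 725 and 744 bp in the first. At the 3 pairs that ranked highest over both lists, chr8:114463608-114465819, chr7:133644569-133647928 and chr1:93146075-93148250, folds were 35.36 to 35.79 in B6-TgWT and 38.53 to 39.02 in B6-TgYF, and summits lay 4 to 32 bp apart.

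B6-TgWT-only peaks lay farther from the nearest shared peak than shared peaks of their list did. Their median distance to the nearest shared peak of their list was 20667 bp, against 10575 bp from a shared peak to the next shared peak. Within 1 kb of a shared peak lay 5.12% of them (interval 4.71 to 5.57) against 14.9% of shared peaks, and within 10 kb 31.5% against 48.5%. B6-TgYF-only peaks had a median of 13434 bp against 10994 bp for shared peaks of their list. Within 1 kb lay 13.5% of them (interval 12.6 to 14.4) against 13.2%, and within 10 kb 43.2% against 47.4%. Where 1 B6-TgYF peak overlapped 2 or more B6-TgWT peaks (698 cases), the matching rule made all of these neighbours shared. The closeness of shared B6-TgWT peaks to each other is thus partly built in, also at like strength, and the size of that part was not tested.

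At like strength, B6-TgWT-only peaks lay farther from a shared peak than shared peaks did in 16 of 16 bins, by 1.66 to 2.94 times. B6-TgYF-only peaks did in 8 of 9, by 0.897 to 1.45 times. Over all strengths, the distance went with absence from B6 as well. Its median was 21730.5 bp for the B6-TgWT-only peaks without a B6 peak and 13847 bp for those with one. Within 10 kb of a shared peak lay 29.8% of the former (interval 28.9 to 30.8) and 42.6% of the latter (interval 39.99 to 45.2), beside 43.7% of the B6-TgYF-only peaks with a B6 peak. At like strength, the former were farther than shared peaks in 16 of 16 bins, by 1.74 to 2.95 times. The latter were farther in 8 of 10 bins, with ratios from 0.380 to 1.94.

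**Figure D4:**
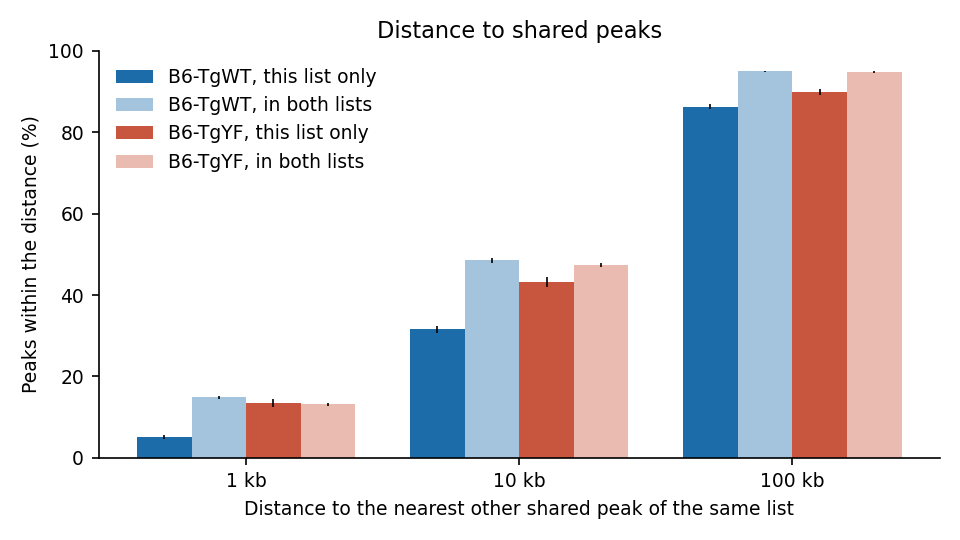
Share of peaks (%) that lie within 1, 10 or 100 kb of another shared peak of the same list, for 1-list and shared peaks of each line, with 95% Wilson intervals. B6-TgWT-only peaks are lowest at each distance, with 5.12% within 1 kb and 31.5% within 10 kb.

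Of the stronger 1-list peaks, those above percentile 50 of the B6-TgWT list, 30.5% lay within 10 kb of a shared peak. The 3 of them farthest from any B6-TgYF peak were at chr1:104945970-104946414 (445 bp, fold 7, 1463 kb away), chr3:43964978-43965711 (734 bp, fold 8.13, 1214 kb away) and chr18:88084637-88087036 (2400 bp, fold 8.99, 975 kb away).

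B6-TgWT-only peaks often followed each other. In 2077 runs of at least 2 with no shared peak between, the B6-TgWT list held 5253 of its 1-list peaks (51.0%), and 110 runs had at least 5. The B6-TgYF list held 1721 of its 1-list peaks (30.4%) in 771 such runs, and 6 had at least 5. A larger share of 1-list peaks makes runs more frequent, and the part of this in the counts was not tested.

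The longest B6-TgWT run had 11 peaks over 1912 kb, at chr1:123950825-125862498, with folds from 3.64 to 11.28 and a median width of 1127 bp. No B6-TgYF peak and 2 B6 peaks lay in it. The longest B6-TgYF run was of another kind, with 19 peaks in 61.5 kb at chr11:3035550-3097059. Their folds were 1.41 to 1.72, at or below percentile 0.0565 of the list, and their median width was 438 bp. No B6-TgWT peak and 1 B6 peak lay in that stretch.

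Both classes were spread over all autosomes. B6-TgWT-only shares ran from 18.3% on chromosome 10 to 25.7% on chromosome 12, around the background of 22.1%. B6-TgYF-only shares ran from 10.3% on chromosome 2 to 16.6% on chromosome 10, around 13.6%. The B6-TgWT share was the higher on 19 of 19 chromosomes with the lists as deposited and on 6 of 19 with lists of equal length. The ratio of counts was lowest on chromosome 10 (1.14) and highest on chromosome 2 (2.71), and these were also the lowest and highest at equal length, with 0.594 and 1.32. Per Mb, B6-TgWT-only peaks numbered from 3.36 on chromosome 3 to 5.90 on chromosome 11, and the more numerous shared peaks from 11.3 to 22.4.

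**Figure D5:**
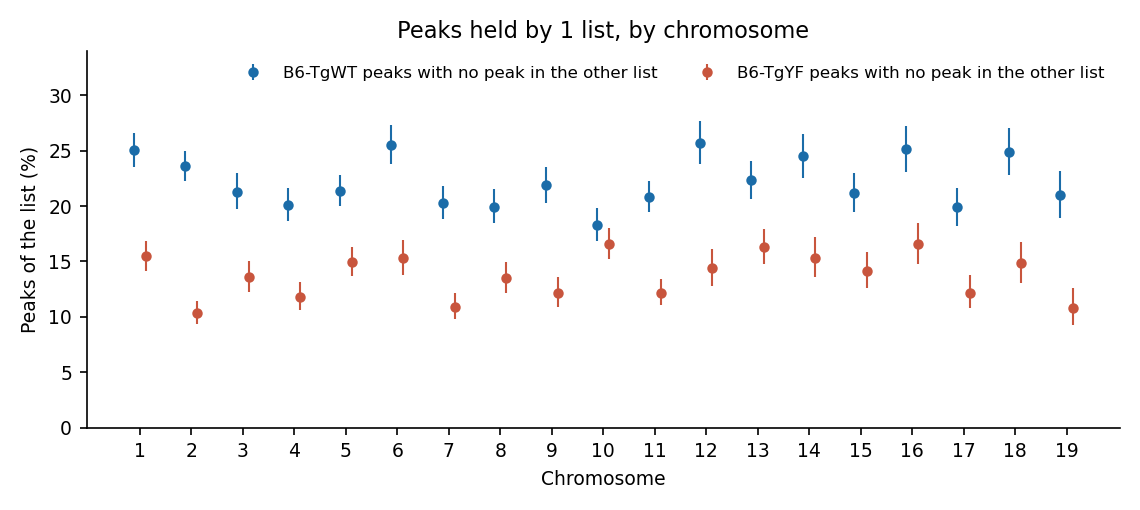
Share of the peaks of each list (%) with no overlapping peak in the other list, by chromosome, with 95% Wilson intervals. B6-TgWT points lie above B6-TgYF points on each of the 19 chromosomes and come closest on chromosome 10, at 18.3% and 16.6%, with the lists as deposited; with lists of equal length they lie above on 6 of 19.

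Along the chromosome, from its first to its last peak, the B6-TgWT-only share was 23.6%, 22.4%, 23.1%, 22.5% and 19.97% over 5 equal parts. The last part, distal to the centromere, held 24.3% of all B6-TgWT-only peaks (interval 23.5 to 25.1) and 27.6% of the shared peaks of that list. B6-TgYF-only shares were 14.3%, 14.3%, 13.6%, 13.8% and 12.7%, and the last part held 25.5% of them (interval 24.4 to 26.7). In both lists the distal part, where shared peaks are densest, had the lowest share of 1-list peaks. For B6-TgYF its interval (12.1 to 13.4) overlapped those of part 3 (12.8 to 14.4) and part 4 (13.1 to 14.5). Shared peaks count in the total of each share, so a lower share where they are densest is partly built in.

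The chromosomes were also cut into 466 windows of 5 Mb, which were sorted by their number of shared B6-TgWT peaks. Windows that reached past the first or last peak of a chromosome were left out. Peaks at the chromosome ends, such as the longest B6-TgYF run, are therefore not in these counts. In the 121 windows with at most 37 shared B6-TgWT peaks, 33.4% of the B6-TgWT peaks were B6-TgWT-only. In the 113 windows with at least 105 shared peaks the share was 17.6%. The median count of B6-TgWT-only peaks per window ran from 11 to 30 between these sets, and that of shared peaks from 23 to 133. B6-TgYF-only shares were 19.6% and 11.04%, with medians of 5 and 17 peaks. Shared B6-TgWT peaks both sorted the windows and count in the total of each share, so the fall in the B6-TgWT-only share is partly set by the sorting, as for B6-TgYF through the partners of those peaks. The counts of both classes were higher in the windows dense in shared sites.

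Among windows with at least 40 peaks, chosen after their values were seen, the highest B6-TgWT-only share was 51.1% (24 of 47 peaks, interval 37.2 to 64.7) on chromosome 1 from 125 to 130 Mb, which the longest run enters. The lowest was 5.56% (3 of 54, interval 1.91 to 15.1) on chromosome 7 from 20 to 25 Mb. For B6-TgYF-only peaks the highest was 32.1% (17 of 53, interval 21.1 to 45.5) on chromosome 13 from 15 to 20 Mb and the lowest 2.50% (3 of 120, interval 0.854 to 7.09) on chromosome 2 from 90 to 95 Mb. B6-TgYF-only peaks outnumbered B6-TgWT-only peaks in 35 of the 466 windows, and in 222 with lists of equal length.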

How the data were processed

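The labels' antibody and line gave the groups. For both ChIP libraries of a line, the authors deposited a single peak list. Per the submitters' processing notes, MACS2, BWA, Bowtie2 and CASAVA were used, with the build mm9 and no role or version. How libraries were combined, or the cutoff, is not given in the sources used here. The lists have 10 unnamed columns, taken to follow the MACS order, which no source states. Fold enrichment, as deposited, is the ratio of ChIP signal to local background. The deposited −log10 p and −log10 q are the authors' values too; the lowest −log10 p was 12 in B6-TgWT and 11 in B6-TgYF. Peak ends and summits are the authors' positions.

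Overlaps, percentiles, distances and bins were computed in Python 3.11.15 with numpy 2.4.6, pandas 2.3.3 and scipy 1.17.1, and drawn with matplotlib 3.10.9. The matching code was tested on simulated, widely spaced sites, and 100% of 38000 were sorted as made. Real peaks lie closer together, so this checks the code and not the sorting of real sites. The comparison, its measures and the naming rule were chosen with earlier results of these data known. Named regions were, of 1-list peaks, the 5 of highest fold, the 3 widest and the longest run, and for B6-TgWT the 3 above percentile 50 farthest from any B6-TgYF peak. Of 1-to-1 pairs they were the 3 highest over both lists and the 3 with the largest summit distance, and in each direction the 3 with the largest gap in rank and in width. The peak of each list over the most peaks of the other was also named. The split of 1-list peaks by B6 at like strength, and chromosome and window counts at equal list length, were added after the data were seen.

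Alternatives were other matching rules, shorter lists, a floor on −log10 q, chromosome X and strength by −log10 q. Leaving out the longest run of B6-TgYF-only peaks was added after the data were seen. No mm9 genome or annotation was used; on chromosome 1 the last peak ended at 197.134 Mb and the last gene of the GRCm38 table at 195.291 Mb. Peaks were therefore not assigned to genes, and no sequence was read. The DMC1 libraries and input coverage were not analysed here.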

Additional observations from a re-analysis of the deposited data

Results flagged for a closer look

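The comparison left out the sex chromosomes, on which both lists hold peaks. On chromosome X there were 1017 B6-TgWT peaks and 938 B6-TgYF peaks. On chromosome Y there were 6 and 5.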

How the results depend on the processing

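Of 72 alternative values for 13 results, 48 stayed within their interval or within 1.5 times their count. For strength bins only the count was compared, so a change from 9 of 9 bins to 8 of 20 counted as staying. Leaving out the longest run of B6-TgYF-only peaks, in which no B6-TgWT peak lay, could not move the shares, widths or percentiles of B6-TgWT. Those values are among the 48. Settings that shorten a list or redefine a match change the classes by construction. With summits within 500 bp in place of overlap, 1-list shares were 24.9% (B6-TgWT) and 15.6% (B6-TgYF), median widths 1153 and 687 bp and median percentiles 31.8 and 14.3. B6-TgYF-only peaks were then narrower than shared ones in 8 of 20 bins of strength, 8 of them among the 9 compared under overlap, and B6-TgWT-only peaks wider in 19 of 20. Extending peaks by 500 bp gave shares of 21.3% and 12.1%. Peaks above percentile 50 of both lists gave 18.8% and 9.88%, a median summit distance of 28 bp and 84.3% of pairs within 100 bp. Peaks above percentile 50 of 1 list against the other in full gave 10.5% and 0.0385%, a ratio of 305.8 and 30.5% of B6-TgWT-only peaks within 10 kb of a shared peak. Lists of equal length gave 19.97%, 20.7% and a ratio of 0.963, and, limited to peaks above percentile 50 of the list in question, 8.41%, 0.5004% and 16.8, the latter added after the data were seen. A lowest −log10 q of 10 gave 13.0% for B6-TgYF, and strength by −log10 q a median percentile of 10.9 for B6-TgYF-only peaks. No paired analysis was possible because the 2 libraries of a line share 1 list, and for the same reason no replicate could be left out. Unknown depth limits every call of absence.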
